A study of Mus musculus with 24 samples.

Results

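Liver RNA of 6 alcohol-fed male (XY) mice, of 24 libraries in all, was compared to ask what happens when knockdown vectors against the histone demethylase genes Kdm5b and Kdm5c and against the AhR gene are given together. The 6 libraries were chosen by their labels alone. The 3 combined mice received AAV-shKdm5b together with AAV-shKdm5c as the first injection and AAV-shAhR as the second. The 3 control mice received AAV-shControl both times. AAV is adeno-associated virus, used here to carry short hairpin RNAs, which lower the messenger RNA that they match. All mice, controls included, had been fed the Lieber-DeCarli liquid alcohol diet for 3 weeks. Male mice that received the Kdm5 vectors and then AAV-shControl (Kdm5 vectors alone), or AAV-shControl and then AAV-shAhR (AhR vector alone), 3 each, show what each part of the combination did without the other. Female (XX) mice with the combined vectors and with control vectors, 3 each, were used to compare the sexes. The labels give no strain, age, vector promoter, dose, batch or time of collection, and RNA came from whole liver.

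KDM5 enzymes remove methyl groups from lysine 4 of histone H3, a mark of active promoters. Kdm5c lies on the X chromosome, and its relative Kdm5d lies on the Y. AhR, the aryl hydrocarbon receptor, is a ligand-activated transcription factor best known in liver for inducing cytochrome P450 genes of foreign-compound metabolism. Members of both families have been tied to the daily clock, which sets the time of much liver metabolism.

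The values are FPKM, a gene's fragment count corrected for transcript length and for the size of the library. Read depth is therefore unknown. The summed FPKM of the 2372 genes in the table lay between 403648 and 429117 in combined and between 380206 and 429780 in control libraries, which are sums of scaled values and not depths. The 19 Mup genes, which encode the major urinary proteins of male liver, made up 18.1% to 24.3% of the sum in combined and 17.6% to 25.7% in control libraries. Hepatocyte markers were high in all 6: the summed level of 6 of the 13 listed markers was 36339 to 38020 FPKM with combined and 34921 to 37296 FPKM with control vectors. Fold changes below are limma estimates of log2(FPKM + 0.5), a scale that understates the change of low genes. Each log2 difference is followed by ± its standard error. A gene passed when its Benjamini-Hochberg adjusted p over 2299 tested genes was under 0.05.

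The targeted gene Kdm5c (chrX:152233198-152279102, GRCm38.p6) was lower with the combined vectors, short of the threshold. It stood at 5.11, 5.36 and 4.86 FPKM in combined livers, 4.89, 4.64 and 5.89 FPKM with the Kdm5 vectors alone, 6.92, 7.69 and 7.81 FPKM with the AhR vector alone, and 6.39, 6.80 and 7.21 FPKM in control livers. The combined and control libraries did not overlap. The log2 difference was -0.38 ± 0.11, with an adjusted p of 0.0785 and a 95% interval of -0.61 to -0.15. The whole table held 75 genes (3.26%) that passed against the AhR vector alone, 21 higher (0.913%) and 54 lower (2.35%), and 21 (0.913%) against the Kdm5 vectors alone, 4 higher (0.174%) and 17 lower (0.739%). Every call against the Kdm5 vectors alone was lost without Kdm5-alone mouse 1, and likewise without combined mouse 3. For Kdm5c the difference against the AhR vector alone, which adds the Kdm5 vectors to the same second injection, was -0.51 ± 0.11 (adjusted p = 0.0124). Against the Kdm5 vectors alone it was 0.00 (adjusted p = 0.998). Its Y-linked relative Kdm5d had 1.90, 1.67 and 1.89 FPKM in combined and 2.07, 2.08 and 1.5 FPKM in control livers, which overlapped. Levels of Kdm5b and Ahr, also targeted, were not analysed here. None of 5 tested AhR target genes passed and 4 lay below 0, with a median log2 difference of -0.23. Cyp1a2, a cytochrome P450 induced through AhR, differed by -0.23 ± 0.22 (adjusted p = 0.708).

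The promoters of genes that carry the main result are shown before their values, from RefSeq (GRCm38.p6), as 300 bases around the annotated start. Ciart encodes a repressor of the clock activator pair CLOCK and BMAL1, and its window on the minus strand (chr3:95882179-95882478) holds 3 copies of the E-box, CACGTG, the site that this pair is known to bind. They are in capitals. Arntl, on the plus strand, encodes BMAL1 itself. The window of its second start site (chr7:113207261-113207560) holds 1 copy of AGGTCA, the half-site bound by ROR and REV-ERB nuclear receptors, in capitals. The window of its first start site, not shown, holds none. H2-Aa, on the minus strand (chr17:34287774-34288073), encodes the alpha chain of an MHC class II molecule. It holds 1 Y-box core, ATTGG, in capitals, an element that class II promoters are known to carry.
Ciart promoter: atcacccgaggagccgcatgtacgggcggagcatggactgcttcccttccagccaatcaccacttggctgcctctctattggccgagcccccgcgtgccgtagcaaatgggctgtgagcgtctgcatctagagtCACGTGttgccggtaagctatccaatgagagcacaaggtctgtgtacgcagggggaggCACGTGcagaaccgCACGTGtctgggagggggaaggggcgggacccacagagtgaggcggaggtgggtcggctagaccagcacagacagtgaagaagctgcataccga
Arntl promoter: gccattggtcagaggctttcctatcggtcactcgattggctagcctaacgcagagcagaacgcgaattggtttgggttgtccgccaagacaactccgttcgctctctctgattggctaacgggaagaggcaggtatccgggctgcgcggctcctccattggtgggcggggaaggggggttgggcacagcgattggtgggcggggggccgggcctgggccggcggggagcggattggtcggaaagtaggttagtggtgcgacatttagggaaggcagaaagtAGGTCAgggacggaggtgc
H2-Aa promoter: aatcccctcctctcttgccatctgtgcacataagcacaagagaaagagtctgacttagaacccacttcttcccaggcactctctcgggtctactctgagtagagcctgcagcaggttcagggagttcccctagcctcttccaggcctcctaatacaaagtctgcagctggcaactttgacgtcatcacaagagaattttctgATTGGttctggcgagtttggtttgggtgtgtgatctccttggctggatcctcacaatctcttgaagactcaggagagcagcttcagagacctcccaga

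Both strands were searched. Of 32851 RefSeq promoters, 7.15% held CACGTG, 16.3% held AGGTCA and 37.4% held ATTGG, so only the first is uncommon in windows of this length. Of the 13 tested clock genes with a promoter entry, 4 held an E-box (Ciart, Per1, Cry1 and Tef), 4 held AGGTCA (Arntl, Per1, Nr1d2 and Nfil3), and 3 held the D-box TTATGNAA (Per1, Per3 and Noct). The D-box stood in 3.38% of all promoters. These clock counts are per gene, with a match in any of its windows. Counted that way, 8.09% of 27025 genes held CACGTG, 18.1% held AGGTCA and 3.99% held TTATGNAA. The Dbp and Usp2 windows held none of these 3 motifs. Such matches describe letters in a window and are no evidence of binding.

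With the combined vectors, 54 of 2299 genes passed against control vectors, which is 2.35% of those tested. Of these, 23 rose (1.00%) and 31 fell (1.35%). The largest rises belonged to the clock-linked genes Ciart and Dbp, the lipid enzyme Lpin1 and the uridine phosphorylase Upp2, all at least 4.04-fold. The falls were smaller, between 1.34-fold and 2.50-fold, and included the clock activator Arntl, the tight junction gene Cldn1 and the lipogenic enzymes Fasn and Acacb. The largest fall was that of Slc34a2, a gene near the floor that was named after its values were seen. It had 0.23, 0.18 and 0.08 FPKM in combined and 1.67, 0.63 and 1.33 FPKM in control livers. The MHC class II genes H2-Ab1, H2-Aa and Cd74 rose by less than 2-fold. Changes of at least 2-fold were found for 11 higher and 6 lower genes. The median log2 difference of all tested genes was 0.01, and the middle 50% lay between -0.14 and 0.13. All 54 had groups that did not overlap, as had 476 genes (20.7%) of the whole table. At an unadjusted p under 0.05 there were 339 genes.

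**Figure D1:**
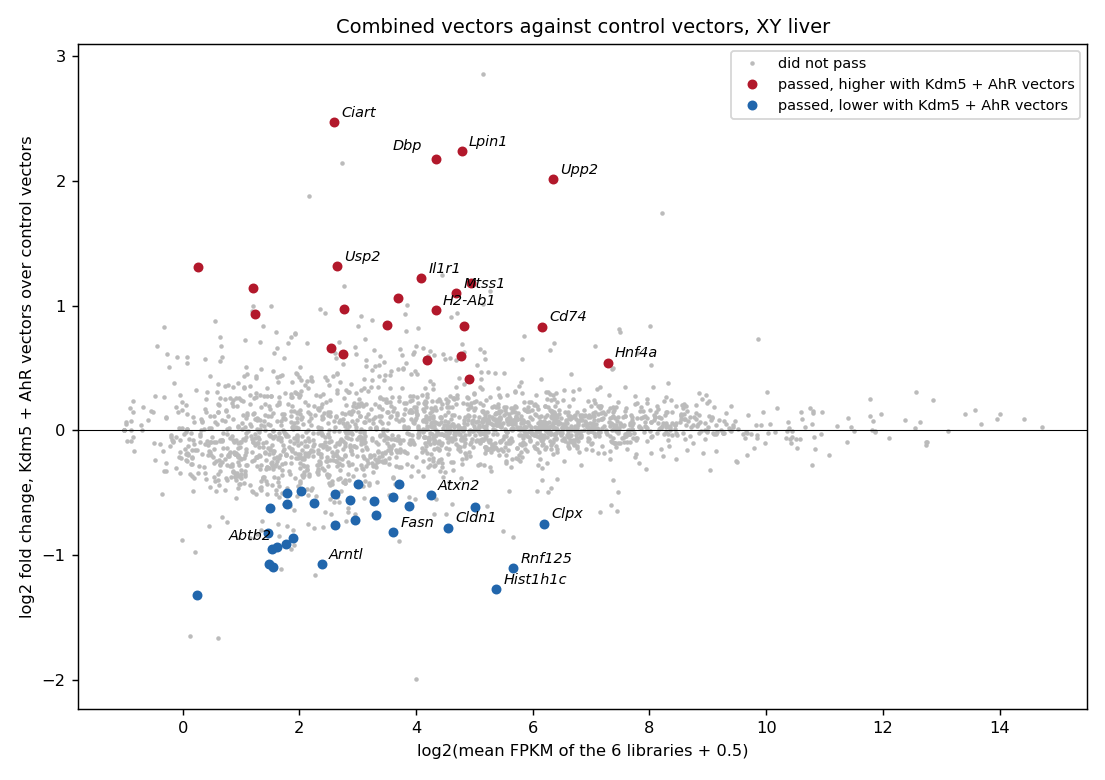
Log2 fold change of combined over control vectors (vertical axis) against log2 mean level of the 6 libraries (horizontal axis) for 2299 genes in XY liver. The 23 genes that rose are red, the 31 that fell are blue, and grey points did not pass. Ciart stands highest among the passed genes, at 2.47.

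How firmly the count stands depends on single mice. Leaving out 1 library left between 16 and 42 genes. Without control mice 1, 2 and 3 in turn there were 42, 27 and 16, and without combined mice 1, 2 and 3 there were 26, 22 and 20. Of the 34 genes named below in this comparison by a fixed rule, 7 passed in all 6 of these smaller fits: Mtss1, Hnf4a, Arntl, Asap2, Abtb2, Dtx4 and Cldn1. None of the 34 changed direction in any of them. In a fit on the 6 compared libraries alone, Dbp, Phlda1, Scara5, Arhgef26, Rnf125, Extl1, Rfx4, Dapk2, Tbc1d30, Pde9a, Acacb and Cd74 lost their calls. In a fit on the 12 XY libraries, Il1r1, Phlda1, Scara5, Arhgef26 and Dapk2 lost theirs. Nothing says that mice of a group came from separate litters, so the spread covers these animals only.

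The circadian clock list held the largest rise of any passed gene. The liver clock is a loop in which BMAL1 with CLOCK switches on its own repressors and a set of output genes, so that activator and output genes peak at opposite times of day. Of 14 tested members, 3 rose (Ciart, Dbp and Usp2) and 1 fell (Arntl), while 10 lay above and 4 below 0. The list's median log2 difference was 0.43, beside 0.01 for all tested genes. The labels give no time of collection. An effect of the vectors on these genes therefore cannot be told apart from a difference in collection time, which was not tested.

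Ciart (chr3:95878500-95882257) stood at 10.35, 9.33 and 9.63 FPKM in combined livers, 7.88, 10.06 and 9.87 FPKM with the Kdm5 vectors alone, 2.59, 6.15 and 8.71 FPKM with the AhR vector alone, and 1.5, 1.05 and 1.56 FPKM in control livers. All combined libraries lay above all control libraries and overlapped those with the Kdm5 vectors alone. The rise over control was 5.53-fold (2.47 ± 0.55 log2, adjusted p = 0.0208). It passed without control mouse 1, and missed the threshold without any of the other 5 mice, with adjusted p between 0.0484 and 0.0929 over the 6 fits.

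Dbp (chr7:45705100-45710203), a leucine zipper factor that drives output genes of the clock through D-boxes, reached 39.44, 28.22 and 28.30 FPKM in combined livers. With the Kdm5 vectors alone it had 7.10, 19.10 and 11.62 FPKM, with the AhR vector alone 16.35, 17.65 and 22.60 FPKM, and in control livers 8.96, 10.77 and 2.87 FPKM. The 3 combined libraries were above all 9 other XY libraries. Dbp rose 4.51-fold over control (2.17 ± 0.44 log2, adjusted p = 0.0144), but missed the threshold without control mouse 3 or combined mouse 1. Against each single treatment it did not pass, at 1.40 ± 0.44 over the Kdm5 vectors alone (adjusted p = 0.124) and 0.74 ± 0.44 over the AhR vector alone (adjusted p = 0.441).

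Usp2, a deubiquitinating enzyme whose message cycles with the clock, had 11.51, 7.89 and 6.17 FPKM in combined, 6.70, 8.78 and 8.96 FPKM in Kdm5-alone, 3.16, 5.71 and 8.27 FPKM in AhR-alone and 2.70, 3.22 and 3.17 FPKM in control livers. Combined and control libraries were apart. It rose by 1.31 ± 0.33 log2 (adjusted p = 0.0383) and passed in none of the 6 fits that left out a mouse.

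Arntl (chr7:113178471-113314126) moved the other way. It stood at 2.56, 3.12 and 2.86 FPKM in combined livers, 5.12, 3.67 and 4.28 FPKM with the Kdm5 vectors alone, 4.48, 3.13 and 2.75 FPKM with the AhR vector alone, and 7.19, 4.98 and 7.69 FPKM in control livers. Combined and control libraries did not overlap, and 1 AhR-alone library lay within the combined range. Arntl fell 2.10-fold (-1.07 ± 0.17 log2, adjusted p = 0.00233). Other members of the loop did not pass. Nr1d1, which encodes the repressor REV-ERB alpha, differed by 1.12 ± 0.44 (adjusted p = 0.211). Npas2, a partner of BMAL1, differed by -0.88 (adjusted p = 0.125), Nr1d2 by 0.60, Per3 by 0.59, Tef by 0.58, Per1 by 0.11 and Cry1 by -0.46.

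**Figure D2:**
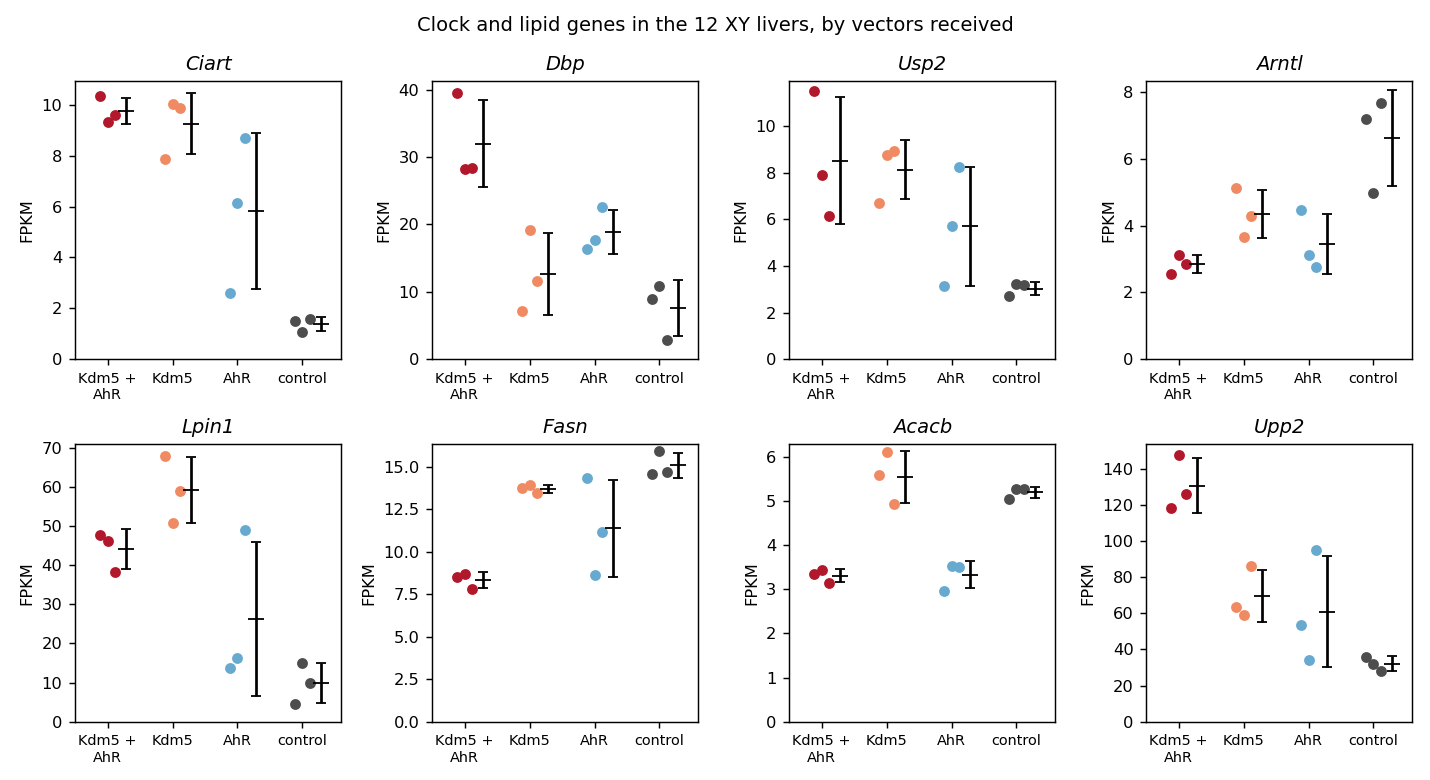
FPKM (vertical axis, from 0) of 8 clock and lipid genes in each of the 12 XY livers, by vectors received, with the mean and SD of 3 mice beside the points. In Dbp and Upp2 the 3 combined points lie above all 9 others, while Ciart and Lpin1 are as high with the Kdm5 vectors alone.

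Lipid genes moved in both directions. Of 13 tested genes of fatty acid and triglyceride synthesis, Lpin1 rose and Fasn and Acacb fell, and the median was -0.07. Lpin1 (chr12:16535669-16653903) encodes a phosphatidate phosphatase of triglyceride synthesis that also serves as a coactivator of fat oxidation genes. It had 47.77, 46.24 and 38.19 FPKM in combined livers and 67.90, 50.86 and 59.00 FPKM with the Kdm5 vectors alone. With the AhR vector alone it had 13.83, 16.22 and 49.01 FPKM, and in control livers 4.66, 15.10 and 9.90 FPKM. Every combined and Kdm5-alone library was above every control library, and 1 of the AhR-alone libraries reached their range. Lpin1 rose 4.71-fold (2.23 ± 0.50 log2, adjusted p = 0.0218). It was the only passed member of the glucocorticoid and fasting response list, of 16 tested. The estimate lay between 1.80 and 2.60 when 1 mouse was left out, and passed only without control mouse 2.

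Fasn, the fatty acid synthase, had 8.53, 8.68 and 7.81 FPKM in combined, 13.78, 13.91 and 13.45 FPKM in Kdm5-alone, 14.34, 8.62 and 11.18 FPKM in AhR-alone and 14.60, 15.95 and 14.70 FPKM in control livers. The combined libraries were lower than all control and all Kdm5-alone libraries. Fasn fell by 0.82 log2 (-0.82 ± 0.21, adjusted p = 0.0389). Acacb, the acetyl-CoA carboxylase whose product holds back fatty acid entry into mitochondria, had 3.35, 3.44 and 3.14 FPKM in combined, 5.59, 6.11 and 4.93 FPKM in Kdm5-alone, 2.97, 3.52 and 3.50 FPKM in AhR-alone and 5.05, 5.27 and 5.26 FPKM in control livers. Its combined and AhR-alone levels overlapped, and both lay below the other groups. Acacb fell against control (-0.58 ± 0.14, adjusted p = 0.0276) and against the Kdm5 vectors alone (-0.66 ± 0.14, adjusted p = 0.0334), while against the AhR vector alone it differed by -0.01 (adjusted p = 0.991). Fasn and Acacb passed against control in none of the fits that left out a mouse. Acaca, the cytosolic carboxylase, differed by -0.43 (adjusted p = 0.151). None of 8 cholesterol genes passed, and all 8 lay below 0, with a median of -0.29. Of 23 genes of fat oxidation under PPAR alpha none passed, with a median of -0.02, and Pdk4, which spares glucose in fasting, differed by -0.83 (adjusted p = 0.0667).

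Upp2, a liver uridine phosphorylase that breaks down uridine, was the most abundant of the strongly raised genes. It had 118.22, 147.71 and 125.81 FPKM in combined livers, 63.68, 59.02 and 85.92 FPKM with the Kdm5 vectors alone, 53.71, 34.34 and 94.73 FPKM with the AhR vector alone, and 36.05, 32.13 and 27.83 FPKM in control livers. The combined libraries were above all 9 others. The Kdm5-alone libraries lay between combined and control, and the AhR-alone libraries overlapped control. The rise was 4.04-fold (2.01 ± 0.47 log2, adjusted p = 0.0261). It passed in none of the fits without a mouse, in which it stayed between 1.92 and 2.10.

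MHC class II molecules present peptides to helper T cells. Of 6 tested genes of this pathway all lay above 0 and 3 rose (H2-Ab1, H2-Aa and Cd74), with a median of 0.80. H2-Ab1 (chr17:34263227-34269418), the beta chain partner of H2-Aa, had 21.70, 29.25 and 27.63 FPKM in combined, 13.69, 16.36 and 14.52 FPKM in Kdm5-alone, 30.05, 30.21 and 30.87 FPKM in AhR-alone and 14.50, 14.29 and 10.85 FPKM in control livers. The combined livers were above all control and Kdm5-alone livers and just below all AhR-alone livers. H2-Ab1 rose by 0.96 ± 0.19 log2 (adjusted p = 0.0107) over control and by 0.79 ± 0.19 (adjusted p = 0.0493) over the Kdm5 vectors alone. Against the AhR vector alone it differed by -0.22 ± 0.19 (adjusted p = 0.637, 95% interval -0.61 to 0.17). The call against control was lost without control mouse 3 or combined mouse 2.

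H2-Aa had 28.79, 40.08 and 38.11 FPKM in combined livers, 23.21, 22.81 and 19.80 FPKM with the Kdm5 vectors alone, 42.18, 38.26 and 52.21 FPKM with the AhR vector alone, and 17.24, 21.05 and 20.49 FPKM in control livers. It rose by 0.84 ± 0.21 (adjusted p = 0.0389), a call kept only without combined mouse 1. Cd74, the invariant chain that escorts class II molecules, had 67.24, 104.53 and 104.23 FPKM in combined, 61.54, 54.70 and 56.56 FPKM in Kdm5-alone, 94.31, 88.81 and 113.88 FPKM in AhR-alone and 45.30, 55.48 and 51.15 FPKM in control livers. In both genes combined mouse 1 was the lowest of its group, still above every control. Cd74 rose by 0.83 ± 0.19 (adjusted p = 0.0222), and missed the threshold without control mouse 1 or 3 or combined mouse 2 or 3. H2-DMb1, which helps to load peptides, differed by 0.78 (adjusted p = 0.0869), H2-Eb1 by 0.66 (adjusted p = 0.205) and the protease gene Ctss by 0.25.

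Markers of macrophages and Kupffer cells, which carry class II molecules, gave other values. Their summed level over 9 of 16 listed genes was 226 to 346 FPKM in combined and 229 to 331 FPKM in control livers, with a median log2 difference of -0.01, 4 above and 5 below 0, none passed and none at 0 in a whole group. Sinusoidal endothelial markers summed to 63.6 to 91.2 FPKM with combined and 75.5 to 91.8 FPKM with control vectors over 9 of 13 genes. Markers of T, B and natural killer cells and of neutrophils were not analysed here. In whole tissue, a change in cell number and a change in RNA per cell cannot be told apart.

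Interferon-stimulated and acute phase genes lay mostly above 0, with few past the threshold. Of 11 tested interferon-stimulated genes, 1 rose and 10 lay above 0 (median 0.45). The riser was Gbp2, an interferon-induced GTPase of cell defence, with 2.43, 3.22 and 2.13 FPKM in combined and 0.97, 1.23 and 1.12 FPKM in control livers (0.93 ± 0.20 log2, adjusted p = 0.0184). That call was lost without control mouse 1 or 3 or combined mouse 2. Of 15 acute phase genes, Il1r1, the signalling receptor for interleukin 1, rose and 12 lay above 0 (median 0.35). It had 25.55, 20.25 and 23.38 FPKM in combined, 33.41, 36.70 and 29.91 FPKM in Kdm5-alone, 8.52, 10.98 and 27.38 FPKM in AhR-alone and 6.84, 12.75 and 10.05 FPKM in control livers. The Kdm5-alone livers were the highest, and combined livers were above all controls (1.22 ± 0.31, adjusted p = 0.0426). This call was lost without any 1 of the 6 mice. The secreted acute phase genes Saa1 and Apcs differed by 0.58 (adjusted p = 0.664) and 0.75 (adjusted p = 0.217).

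**Figure D3:**
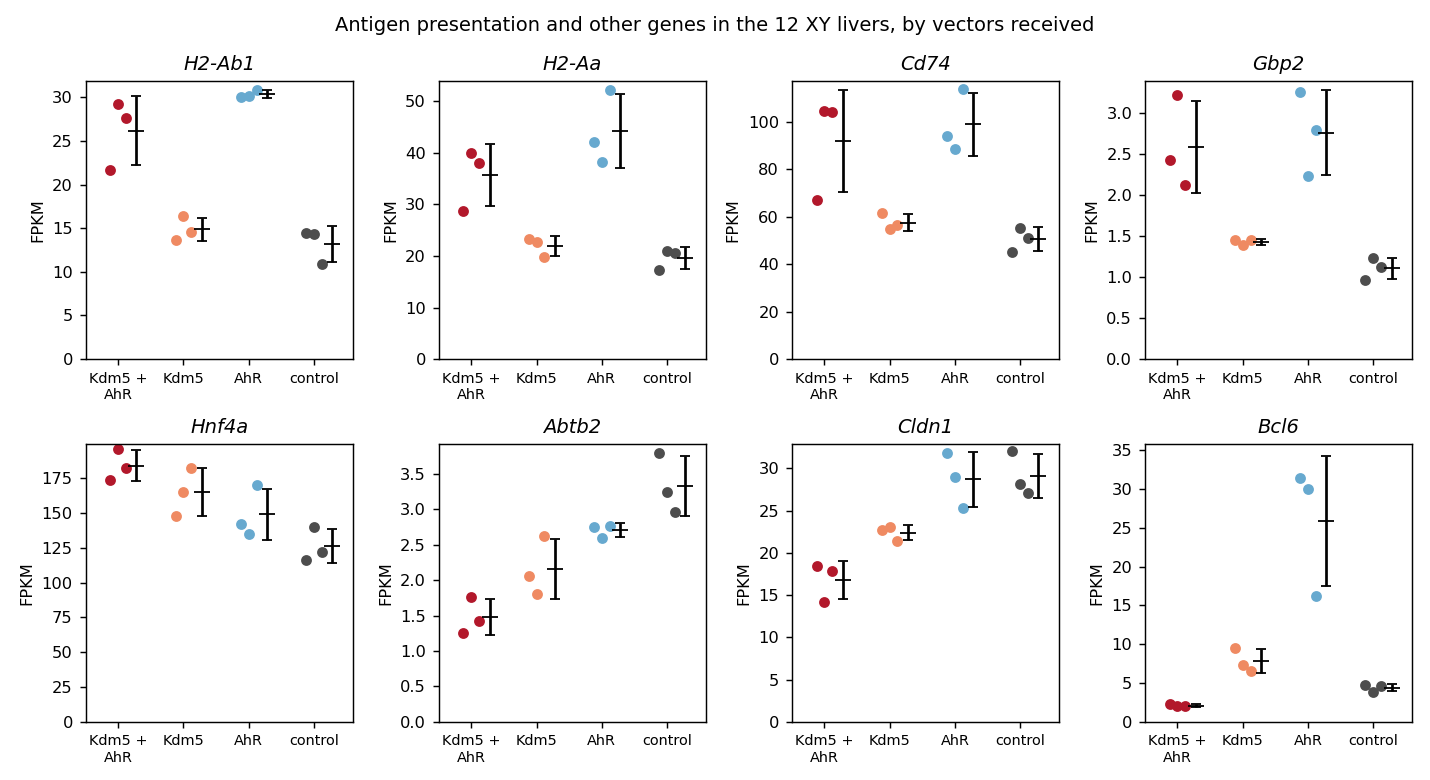
FPKM (vertical axis, from 0) of 8 genes in each of the 12 XY livers, by vectors received, with the mean and SD of 3 mice beside the points. The class II genes and Gbp2 are high in combined and AhR-alone livers, Hnf4a is highest and Abtb2 lowest in combined livers by their means, and Bcl6 is highest with the AhR vector alone and lowest in combined livers.

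Regulators of hepatocyte genes that rose did so by small amounts. Hnf4a, the nuclear receptor that maintains hepatocyte gene expression, had 173.82, 195.79 and 182.22 FPKM in combined, 148.17, 165.36 and 182.29 FPKM in Kdm5-alone, 142.19, 135.17 and 169.94 FPKM in AhR-alone and 116.36, 140.37 and 122.24 FPKM in control livers. Combined and control livers were apart, and the single treatments lay mostly between. It rose 1.46-fold (0.54 ± 0.10 log2, adjusted p = 0.0101). It was the only passed gene of 19 tested in the list of insulin and growth hormone signalling, where it had been placed. Nr1i2, the foreign-compound sensor PXR, was named after its values were seen. It rose, with 30.13, 34.41 and 32.98 FPKM in combined and 20.80, 22.77 and 20.46 FPKM in control livers (0.59 ± 0.12, adjusted p = 0.0144). Of 14 target genes of the sensors CAR and PXR none passed, and their median was 0.06, with 8 above and 6 below 0. They ran from -1.99 to 0.75. The lowest was Cyp2b10, with 5.82, 3.83 and 6.33 FPKM in combined and 9.96, 26.55 and 40.86 FPKM in control livers. Cyp2b13 and Cyp2a4 were below 1 FPKM in every XY library, so the median says little about them.

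Outside these lists, Mtss1, which links the plasma membrane to actin, had 37.84, 33.85 and 32.35 FPKM in combined, 30.03, 34.22 and 31.45 FPKM in Kdm5-alone, 15.23, 20.54 and 31.51 FPKM in AhR-alone and 15.18, 17.06 and 15.49 FPKM in control livers. The combined and Kdm5-alone ranges overlapped, above control, and the rise was 2.14-fold (1.10 ± 0.19 log2, adjusted p = 0.00495). Phlda1, a pleckstrin homology-like protein, showed another order. It had 35.05, 47.57 and 42.16 FPKM in combined, 12.29, 22.46 and 19.62 FPKM in Kdm5-alone, 16.75, 13.03 and 22.15 FPKM in AhR-alone and 17.70, 26.63 and 12.17 FPKM in control livers.

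Only the combined livers were high in Phlda1. It rose over control (1.18 ± 0.26, adjusted p = 0.0184), over the Kdm5 vectors alone (1.21 ± 0.26, adjusted p = 0.0334) and over the AhR vector alone (1.26 ± 0.26, adjusted p = 0.00804). Its interaction of both vectors was 1.29 ± 0.36 (adjusted p = 0.0754), which missed the threshold. The call over control was lost without control mouse 3 or combined mouse 2 or 3, and in both fits on fewer libraries. The call over the Kdm5 vectors alone was lost without Kdm5-alone mouse 1 or combined mouse 3. Scara5, a ferritin receptor (1.14 ± 0.27, adjusted p = 0.0252), Rhobtb1 (1.06, adjusted p = 0.0107) and Arhgef26 (0.97, adjusted p = 0.0445) rose too. So did Mcm10, a DNA replication factor and the only passed gene of 28 on the male-biased list (0.84 ± 0.20, adjusted p = 0.0252), though in none of the fits without a mouse. Scara5 lost its call with a pseudocount of 0.1, in both fits on fewer libraries, and without control mouse 1 or 2 or combined mouse 3, Rhobtb1 without control mouse 3, and Arhgef26 without any mouse but combined mouse 2. Arhgef26 also lost it with a pseudocount of 1, with a mean of at least 5 FPKM required, and in both fits on fewer libraries.

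Besides Arntl, 4 named lower genes kept their call in every fit that left out a mouse: Cldn1, Abtb2, Dtx4 and Asap2. Cldn1, a claudin that seals tight junctions between hepatocytes, had 18.41, 14.20 and 17.80 FPKM in combined livers, 22.67, 23.08 and 21.39 FPKM with the Kdm5 vectors alone, 31.84, 28.97 and 25.32 FPKM with the AhR vector alone, and 32.04, 28.15 and 27.12 FPKM in control livers. All combined libraries were below all 9 others. Cldn1 fell 1.72-fold (-0.78 ± 0.11 log2, adjusted p = 0.0015), and it also fell against the AhR vector alone (-0.76 ± 0.11, adjusted p = 0.000745). Abtb2, a BTB domain protein, had 1.26, 1.76 and 1.42 FPKM in combined, 2.06, 1.80 and 2.63 FPKM in Kdm5-alone, 2.75, 2.59 and 2.77 FPKM in AhR-alone and 3.80, 3.24 and 2.96 FPKM in control livers. The combined libraries were again below all others (-0.96 ± 0.14, adjusted p = 0.0015).

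Dtx4, a Deltex ubiquitin ligase, had 1.63, 1.55 and 1.61 FPKM in combined, 3.08, 2.09 and 2.49 FPKM in Kdm5-alone, 2.90, 2.16 and 2.33 FPKM in AhR-alone and 4.02, 3.21 and 3.34 FPKM in control livers. Both single treatments lay between combined and control (-0.94 ± 0.14, adjusted p = 0.00195). Asap2, which switches off Arf GTPases of membrane traffic, had 1.51, 1.09 and 1.28 FPKM in combined and 3.50, 3.20 and 3.09 FPKM in control livers (-1.07 ± 0.18, adjusted p = 0.00328). These are low levels, but no combined value came near a control value. Hist1h1c, a linker histone gene among similar copies between which reads could be split, had 25.31, 23.43 and 22.48 FPKM in combined, 40.91, 30.55 and 39.61 FPKM in Kdm5-alone, 38.48, 43.32 and 34.08 FPKM in AhR-alone and 55.91, 56.83 and 61.66 FPKM in control livers. It was lowest in combined and highest in control livers (-1.27 ± 0.29, adjusted p = 0.0241), although the call was lost without any 1 mouse.

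Further falls were those of Rnf125, a ubiquitin ligase of antiviral signalling (-1.11, adjusted p = 0.0184), Extl1, of the exostosin family of sugar transferases (-1.10, adjusted p = 0.0168), and Clpx, the unfolding subunit of a mitochondrial protease (-0.75, adjusted p = 0.0166). Rnf125 lost its call without control mouse 1 or combined mouse 3, Extl1 without control mouse 3 or combined mouse 2 or 3, and Clpx without control mouse 3 or combined mouse 1. Rfx4, Dapk2, Tbc1d30, Lad1 and Pde9a fell as well, by between 0.72 and 0.91 log2. Each of them lost its call in 3 or more of the 6 fits without a mouse.

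Combined libraries lay beyond all 9 other XY libraries for 116 of 2299 genes (5.05%), 20 higher (0.870%) and 96 lower (4.18%). Of the 23 genes that rose, 5 were among them (Upp2, Dbp, Il18, Phlda1 and Map3k5). Of the 31 that fell, 17 were, including Cldn1, Dtx4, Asap2, Abtb2 and Hist1h1c. Control libraries belong to the 9, so part of this follows from the choice of genes. Of the 54 passed genes, 40 were in none of the 39 gene lists. No member passed in 28 of the 36 lists with tested members, among them bile acid synthesis, female-biased liver genes and stellate cell markers. Some female-biased genes could not pass here. Cyp3a41b, Hao2, Sult2a3 and Sult2a5 had 0 FPKM in all 12 XY libraries and met the filter through XX livers only. The medians of those 28 lists ran from -0.41 to 0.31.

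**Figure D4:**
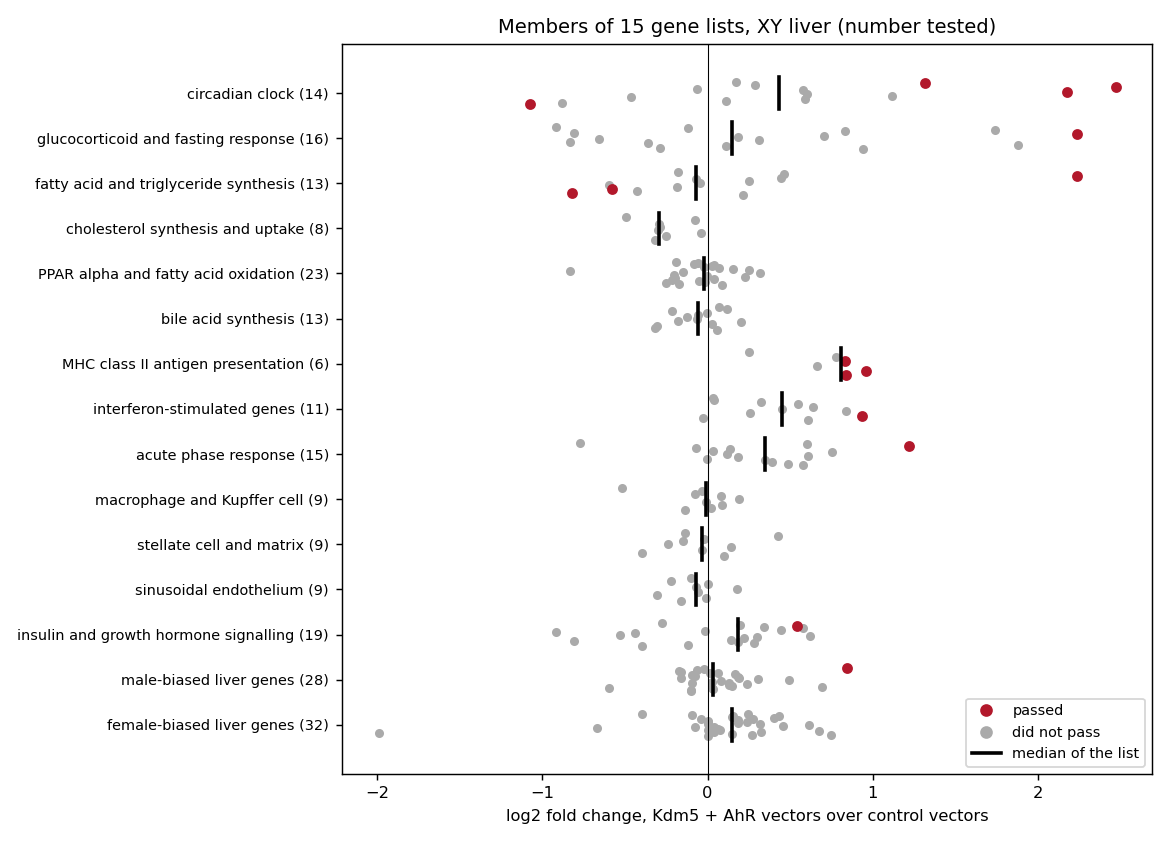
Log2 fold change of combined over control vectors (horizontal axis) for the tested members of 15 gene lists in XY liver, with the number tested in brackets. Red points passed, grey points did not, and black bars are list medians. The MHC class II list has the highest median of those drawn, at 0.80, and the cholesterol list the lowest, at -0.29.

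Whether both vectors together differed from the sum of the single effects was tested as an interaction on the log2 scale. Here 37 genes passed (1.61%), 5 above the sum (0.217%) and 32 below it (1.39%), and 294 had an unadjusted p under 0.05. The median over all tested genes was -0.08. Median of ratios scaling moved it by 0.08, which removed this offset, and left 25 genes, 5 above and 20 below the sum. In a fit on the 12 XY libraries alone 13 passed, 1 above and 12 below. The interaction uses the control libraries on the opposite side from the combined comparison, so the values are given side by side only.

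Bcl6 (chr16:23965050-23988866), a transcriptional repressor of immune and lipid genes, departed most. It had 2.28, 1.99 and 2.00 FPKM in combined livers, 9.57, 7.38 and 6.57 FPKM with the Kdm5 vectors alone, 31.40, 29.99 and 16.26 FPKM with the AhR vector alone, and 4.73, 3.89 and 4.56 FPKM in control livers. The combined livers were the lowest of the 12 and the AhR-alone livers the highest. The interaction was -4.05 ± 0.41 log2 (adjusted p = 4.43e-06). Bcl6 differed by -0.92 ± 0.29 from control (adjusted p = 0.0975). It fell by 3.29 log2 against the AhR vector alone (-3.29 ± 0.29, adjusted p = 7.88e-07) and by 1.67 log2 against the Kdm5 vectors alone (-1.67 ± 0.29, adjusted p = 0.00851).

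Spata2l had the same adjusted p. Its 18.26, 15.53 and 13.19 FPKM in combined livers stood beside 26.47, 28.56 and 23.39 FPKM with the Kdm5 vectors alone, 32.54, 40.71 and 34.18 FPKM with the AhR vector alone, and 16.58, 16.60 and 19.68 FPKM in control livers. Combined and control livers overlapped, below both single treatments (interaction -1.73 ± 0.17, adjusted p = 4.43e-06). Id2, an inhibitor of basic helix-loop-helix factors, showed the mirror image. It had 76.19, 78.45 and 98.84 FPKM in combined, 38.18, 57.08 and 61.43 FPKM in Kdm5-alone, 47.25, 39.53 and 46.61 FPKM in AhR-alone and 77.59, 88.28 and 73.39 FPKM in control livers. Each single treatment was below control and the combination overlapped it (interaction 1.54 ± 0.29, adjusted p = 0.0158). Bcl6, Spata2l and Id2 were the 3 of 15 named genes that passed in all 12 fits without a mouse. Camk2b, a calcium-dependent kinase gene, had 4.08, 3.90 and 2.16 FPKM in combined, 0.67, 1.53 and 2.13 FPKM in Kdm5-alone, 0.37, 0.73 and 0.80 FPKM in AhR-alone and 2.01, 1.63 and 1.44 FPKM in control livers. The combined livers were above all 9 others, and the interaction was 2.00 ± 0.40 (adjusted p = 0.0158), lost without Kdm5-alone mouse 1 or combined mouse 2 and in the fit on the 12 XY libraries. Pim3, a survival kinase gene, lay below the sum (-1.70, adjusted p = 0.0158), with 25.52, 13.39 and 13.61 FPKM in combined, 25.85, 24.08 and 21.29 FPKM in Kdm5-alone, 32.01, 52.38 and 44.53 FPKM in AhR-alone and 22.53, 18.12 and 13.99 FPKM in control livers. It was highest with the AhR vector alone, and its call was lost without AhR-alone mouse 3, Kdm5-alone mouse 1 or combined mouse 2 or 3, and in the fit on the 12 XY libraries. The other named genes were Cep85l, Arrdc2, Tcim, Lgals4, Tmc7 and Herpud1 below the sum and Gm39701, Gm41844 and Tbx3 above it, each losing its call in 3 or more of the 12 fits. Of these, Arrdc2 and Herpud1 kept it in the fit on the 12 XY libraries. The clock repressor gene Per1 (-1.52 ± 0.30, adjusted p = 0.0158) lost its call without AhR-alone mouse 3 or combined mouse 2 or 3 and in the fit on the 12 XY libraries. Its level was 6.20, 5.71 and 4.41 FPKM in combined and 3.57, 5.02 and 6.70 FPKM in control livers, which overlapped.

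The same vectors were also given to females. Kdm5c had 10.2, 12.46 and 9.37 FPKM in combined and 11.07, 9.32 and 10.6 FPKM in control XX livers, which overlapped. Its XY minus XX difference was -0.42 and did not pass. An equal lowering of the targets in both sexes was therefore not shown. Of the 54 genes that passed in XY livers, 10 also passed in XX livers, which is 18.5% of the 54 and 3.76% of the 266 XX genes (11.6% of those tested, 7.79% higher and 3.78% lower). These comparisons share no library. Of the 10 genes, 8 moved the same way (Dbp, Mtss1 and Tns1 higher, Arntl, Asap2, Clpx, Rnf125 and Wrnip1 lower) and 2, Atxn2 and Ubd, moved oppositely. Tns1, Wrnip1, Atxn2 and Ubd were named after their values were seen. Dbp had 9.47, 16.96 and 14.25 FPKM in combined and 2.41, 3.34 and 1.67 FPKM in control XX livers, a rise of 2.24 ± 0.44 log2 (adjusted p = 0.00631). The difference between the sexes was -0.07 ± 0.63 (adjusted p = 0.948). Arntl had 8.46, 5.72 and 6.51 FPKM in combined and 10.60, 10.92 and 9.09 FPKM in control XX livers (-0.55 ± 0.17, adjusted p = 0.0442).

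Tested directly, the combined effect differed between XY and XX for 136 genes (5.92%), 32 with the higher effect in XY (1.39%) and 104 with the lower (4.52%). MHC class II genes were in the first group. H2-Ab1 had 20.21, 18.87 and 26.94 FPKM in combined and 34.03, 29.44 and 30.64 FPKM in control XX livers. It was thus lower in every combined than in every control female, without passing there (-0.52 ± 0.19, adjusted p = 0.0735). The XY minus XX difference was 1.48 ± 0.27 (adjusted p = 0.00902), and it was 1.45 ± 0.30 for H2-Aa (adjusted p = 0.0112) and 1.34 ± 0.26 for Cd74 (adjusted p = 0.00973). Control females stood higher than control males in all 3 genes. Lpin1 had 19.49, 18.19 and 41.34 FPKM in combined and 30.85, 46.45 and 27.83 FPKM in control XX livers, which overlapped (-0.47 ± 0.50, adjusted p = 0.549). The XY minus XX difference for Lpin1 was 2.71 ± 0.71 (adjusted p = 0.0262), which missed the threshold in 7 of 12 fits without a mouse.

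Among genes with the lower effect in XY, Afp, the fetal albumin relative, stood furthest out. It had 0.29, 0.16 and 0.64 FPKM in combined and 0.35, 0.34 and 0.17 FPKM in control XY livers, against 16.00, 25.16 and 21.42 FPKM in combined and 0.05, 0.23 and 0.33 FPKM in control XX livers. Males stayed near the bottom of the scale in both groups, and the difference was -4.82 ± 0.41 (adjusted p = 4.61e-07). Tlr12, a toll-like receptor gene, had 3.81, 2.30 and 3.03 FPKM in combined and 5.49, 5.38 and 5.62 FPKM in control XY livers. In XX livers it had 4.94, 3.53 and 6.64 FPKM with combined and 1.90, 2.90 and 2.66 FPKM with control vectors, below control in XY and above it in XX (difference -1.65 ± 0.34, adjusted p = 0.0112). Cd163, a macrophage scavenger receptor gene, had 2.20, 3.62 and 3.55 FPKM in combined and 3.40, 4.22 and 6.66 FPKM in control XY livers, beside 7.70, 8.43 and 9.51 FPKM in combined and 4.66, 5.48 and 5.25 FPKM in control XX livers (difference -1.20 ± 0.27, adjusted p = 0.0142).

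**Figure D5:**
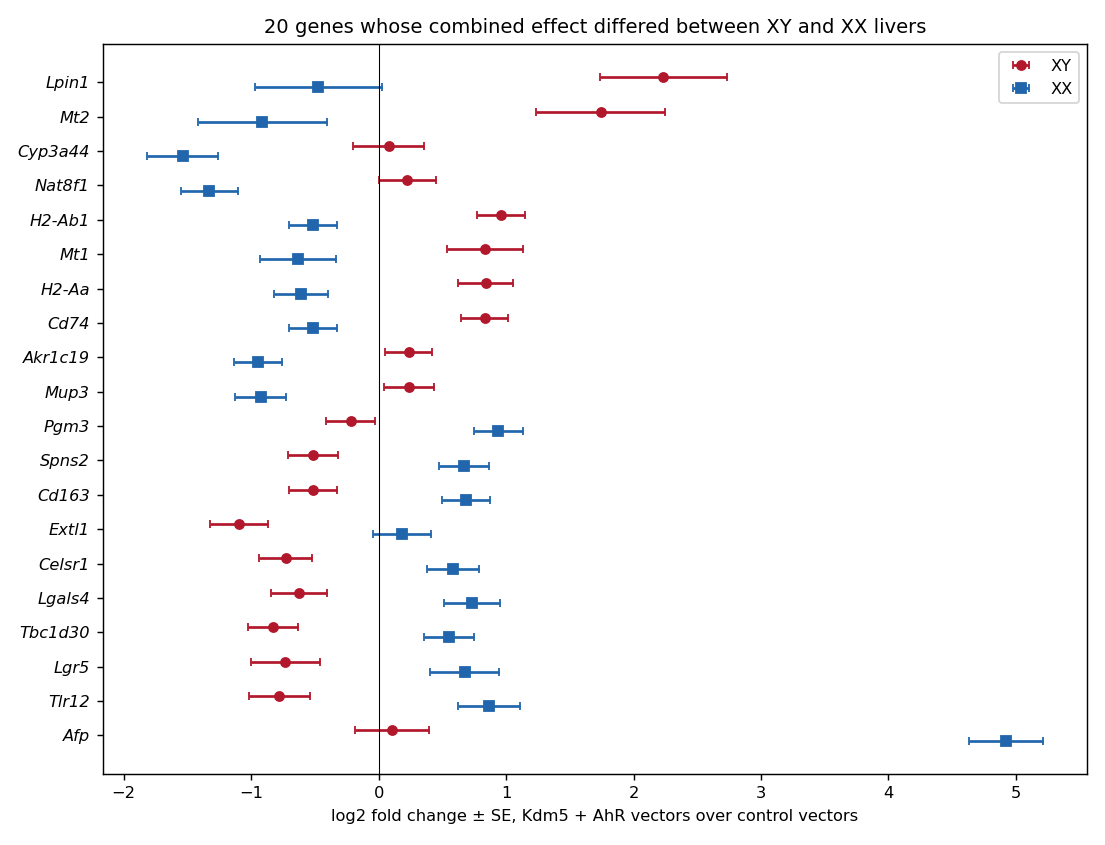
Log2 fold change of combined over control vectors with its standard error (horizontal axis) in XY livers (red circles) and XX livers (blue squares) for 20 genes whose effect differed between the sexes. Lpin1 has the largest positive difference, 2.71, and Afp the largest negative one, -4.82.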

How the data were processed

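RNA of whole liver was measured in 24 libraries, 1 per mouse, in 8 groups of 3 taken from the labels. Libraries followed the sequencing provider's standard protocol, per the labels' protocols. The authors deposited 1 FPKM value per gene and library, per the file headers, rounded to 2 decimals. Reads were handled with HISAT and Bowtie2 on GRCm38.p6, per the submitters' processing notes. Versions, counting and strand use are not stated there, so overlapping genes cannot be separated. Whole reads could not be recovered from FPKM, so depth is unknown and no counting interval is given. How the 2372 genes of the table were chosen is not stated, and an adjusted p holds within them.

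Values were analysed here as log2(FPKM + 0.5) with limma 3.58.1 in R 4.3.3 (1 mean per group, intensity trend, robust moderation, 16 residual degrees of freedom, all 24 libraries). A gene needed 1 FPKM or more in 3 or more libraries, which left 2299 to test and 73 out. Benjamini-Hochberg adjustment ran over all of them.

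Kdm5c was always named. Further named genes were up to 15 highest and 15 lowest passed changes with a mean of at least 1 FPKM and no overlap of groups, up to 4 passed members of each of 39 lists, and up to 10 in each direction for the sex difference and the interaction. The lists held 707 genes, of which 392 were tested. Comparisons, members and lists were chosen with earlier results of these data known. Coordinates are RefSeq gene spans. Promoters came from RefSeq and were matched by gene identifier. Some genes are not reported here. The fit was first tested on simulated data. Alternatives were other pseudocounts, filters, scalings, library weights, moderation and sets of libraries, and leaving out each library.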

Additional observations from a re-analysis of the deposited data

Results flagged for a closer look

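The combined effect (log2 fold change of combined over control vectors) differed between XY and XX livers by a test of the difference itself in the 20 genes named by the fixed rule. Adjusted p came from limma over 2299 genes. Each value below is the XY effect minus the XX effect on the log2 scale.

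The difference was positive for Lpin1 (2.71), for the metallothionein genes Mt2 (2.65) and Mt1 (1.47), for Cyp3a44 (1.62), Nat8f1 (1.55) and Akr1c19 (1.18), for the major urinary protein gene Mup3 (1.17), and for the class II genes H2-Ab1 (1.48), H2-Aa (1.45) and Cd74 (1.34). Cyp3a44 had 0, 0 and 0.17 FPKM in combined and 0, 0.07 and 0 FPKM in control XY livers, so it passed the filter through XX livers, and nearly all of its difference is the XX effect, -1.54. Its XX libraries had 12.69, 10.12 and 6.59 FPKM with combined and 39.20, 33.98 and 17.28 FPKM with control vectors, and the call was lost with a pseudocount of 0.1. Cyp3a44 and Mup3 have near-identical relatives between which reads could be split. In Mt2, the libraries had 543.58, 299.59 and 530.57 FPKM in combined and 157.30, 120.93 and 120.67 FPKM in control XY livers, beside 376.37, 97.61 and 476.40 FPKM in combined and 458.80, 751.89 and 339.97 FPKM in control XX livers. Nat8f1 had 69.56, 66.88 and 56.90 FPKM in combined and 59.87, 77.00 and 35.89 FPKM in control XY livers, beside 47.83, 48.22 and 40.46 FPKM in combined and 130.62, 89.50 and 128.50 FPKM in control XX livers.

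The difference was negative for Afp (-4.82), Tlr12 (-1.65), Lgr5 (-1.41), Tbc1d30 (-1.38), Lgals4 (-1.36), Celsr1 (-1.31), Extl1 (-1.28), Cd163 (-1.20), Spns2 (-1.18) and Pgm3 (-1.16). Leaving out each of the 12 libraries in turn kept the call of 14 of the 20 genes in all 12 fits. The exceptions were Lpin1, Mt2, Mt1, Cyp3a44, Lgr5 and Extl1, which lost it in at least 3 fits each. Mt1 also lost it with a mean of at least 5 FPKM required, and Lgr5 in the fit on the compared groups alone.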

How the results depend on the processing

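None of the named genes changed direction under any alternative run. They stayed on their side of the threshold in 593 gene-by-setting values and lost the call in 41, and when 1 library was left out they stayed in 401 and lost the call in 223. Counts of passed genes moved more. For combined against control vectors (54) there were 33 with a mean of at least 5 FPKM, 113 with library weights and 30 (16 higher, 14 lower) in the compared groups alone. Leaving out 1 library gave 16 to 42. For the XY minus XX difference (136) the counts were 81 with the stricter filter, 211 with median of ratios scaling, with or without the Mup genes, 384 with library weights, and 69 to 186 without 1 library. The count was 82 without XY control mouse 1, 69 without XY combined mouse 3, 86 without XX control mouse 1 and 87 without XX combined mouse 2.

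For the interaction (37) the counts were 97 with library weights, 13 in the 12 XY libraries alone, and 5 to 44 without 1 library. It was 22 without control mouse 2 and also without control mouse 3, 7 without AhR-alone mouse 3, 8, 24 and 19 without Kdm5-alone mice 1, 2 and 3, and 5 and 10 without combined mice 2 and 3. Combined against the Kdm5 vectors alone gave 21 (4 higher, 17 lower), and 7 with the stricter filter, 235 with library weights, 37 in the compared groups alone, 8 in the 12 XY libraries and 0 to 14 without 1 library. The limma count of 0 arose without Kdm5-alone mouse 1 (282 at an unadjusted p under 0.05) and without combined mouse 3 (311). Combined against the AhR vector alone gave 75 (21 higher, 54 lower), and 49 with the stricter filter, 179 with library weights, 24 in the compared groups alone, and 35 to 65 without 1 library, with 42 without AhR-alone mouse 2, and 43 and 35 without combined mice 2 and 3. With median of ratios scaling it gave 53 (22 higher, 31 lower). This scaling moved the median of all genes by at most 0.08 log2. The fit on the compared groups has fewer libraries to estimate the spread, the stricter filter tests fewer genes, and the cause of the other shifts was not tested. The 12 XY libraries give no value for the XY minus XX difference.

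No paired analysis was possible because the labels give each mouse its own number, none of which is shared between groups. Limits are the 3 mice per group, unknown depth and a table of chosen genes.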
